A study of Mus musculus with 8 samples.

Results

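The genes described here encode the proteins of the cytosolic ribosome. They were taken from the deposited table of FPKM values (fragments scaled to transcript length and to the number of mapped fragments) by symbol. A symbol had to begin with Rpl or Rps followed by a digit, or be Rpsa or a P-stalk protein. Symbols of pseudogenes and of the Rps6k kinases were left out, and a mean of at least 1 FPKM over the 8 libraries was required. This gave 83 of the 37447 genes in the table, 49 with a large subunit symbol (Rpl) and 34 with a small subunit symbol (Rps). The libraries came from microglia, the macrophages that live in the brain and optic nerve, flow sorted from the optic nerve of C57BL/6 mice aged 3 months. All 8 libraries carry Nf1 flox/flox, a deletable allele of the Ras regulator neurofibromin. The 4 FF libraries have that genotype alone and the 4 FFC libraries also carry GFAP-Cre, a recombinase under a promoter known for its activity in astrocytes and their precursors, not in microglia. Each genotype had 2 female and 2 male libraries. Replicates are labelled as biological, but whether each was 1 animal or a pool is not given, so p-values measure the spread between these libraries.

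A cytosolic ribosome is built from a large and a small subunit, each an RNA core covered with many different proteins, nearly all present as a single copy. The small subunit decodes the messenger RNA and the large subunit forms the peptide bond. Most ribosomal protein messages begin with a terminal oligopyrimidine tract, a C followed by an unbroken run of C and T at the very start of the transcript, through which the kinase mTORC1 controls their translation together. Ribosomal protein messages are among the most abundant in nearly every cell and have many processed pseudogenes.

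The start sites are shown because the tract is the regulatory sequence for which these messages are known. Of the 83 members, 61 had a start site in the RefSeq promoter table (GRCm38.p6). In a window of 30 bases, 15 before and 15 from the annotated start, a tract of at least 6 bases was searched on the coding strand only, as a C followed by C or T. A gene with several start sites counted if any held it. It was present at 35 of the 61 members (57.4%) and at 2693 of 10140 tested genes with a start site (26.6%). A tract of at least 8 bases was present at 26 members (42.6%) and 1178 tested genes (11.6%). Large subunit members held the shorter tract in 21 of 37 cases and small subunit members in 14 of 24. The windows below run 5′ to 3′, with every such tract in capitals and the annotated start at base 16. The first 6 hold a tract near the start and the last 3 do not.
Rps6 (chr4:86857353-86857382, minus strand): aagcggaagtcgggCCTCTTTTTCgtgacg
Rplp2 (chr7:141447636-141447665, plus strand): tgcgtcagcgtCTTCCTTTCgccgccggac
Rps27 (chr3:90213634-90213663, minus strand): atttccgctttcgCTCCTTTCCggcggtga
Rpl7a (chr2:26910792-26910821, plus strand): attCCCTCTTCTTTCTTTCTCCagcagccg
Rpl15 (chr14:18270972-18271001, minus strand): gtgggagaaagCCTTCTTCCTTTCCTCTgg
Rpl35 (chr2:39005117-39005146, minus strand): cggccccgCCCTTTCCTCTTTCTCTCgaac
Rplp0 (chr5:115559452-115559481, plus strand): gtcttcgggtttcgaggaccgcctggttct
Rpl5 (chr5:107900513-107900542, plus strand): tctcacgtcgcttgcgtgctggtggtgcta
Rpsa (chr9:120127751-120127780, plus strand): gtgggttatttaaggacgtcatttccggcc
A tract in this window is a match of letters, and its absence says only that the letters are not at this annotated start. Members with a tract had a median of 421 FPKM and the 26 without had 497 FPKM.

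Before the members are described, the libraries need an account, because they differed widely. The table holds no read counts, and depth is therefore unknown. Summed FPKM ranged from 367760 to 700291, with 11964 to 14146 genes exceeding 1 FPKM. Microglial markers were present in all 8 libraries, with 12 of 12 listed markers tested and a summed level of 1715 to 5039 FPKM in FF and 3191 to 5796 in FFC. The lowest sums were those of FF 2 (1715) and FF 4 (3049). Astrocyte markers summed to 116 to 321 FPKM in FF and 91.6 to 188 in FFC, most of it from Slc1a3 (49.7 to 192 FPKM) and, in FF, Clu (up to 127), while Gfap was at most 1.03 FPKM. Neuronal markers summed to 0.0319 to 5.20 FPKM in FF, highest in FF 3, then FF 4 and FF 2, and to 0.510 to 0.771 in FFC. Stmn2 reached 3.10 FPKM in FF 3 and Syt1 2.09 in FF 2, while Snap25 was at most 0.0607. Genes for olfactory, vomeronasal and trace amine receptors, which microglia are not known for, held 4.58% of the summed FPKM in FF 2 and 3.63% in FF 4, against 0.734% to 1.87% in the other 6. FF 2 and FF 4 stand apart on this share, and the genotype comparison is given with and without them. FF 1, which stays in both comparisons, had the highest sums of blood cell markers. These were 2456 FPKM for neutrophils, 241 for erythroid cells and 540 for T and B cells. Most of the neutrophil sum came from S100a8 (975 FPKM) and S100a9 (1126). Ly6g of the same list was at 0 in all 4 FF libraries, against 0, 16.8, 132 and 60.8 FPKM from FFC 1 through FFC 4.

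Ribosomal protein messages were highly abundant, with a median member at 495 FPKM against 6.73 FPKM for the 17753 genes tested, and 56 of the 83 were among the 200 genes with the highest mean. They made up 15.3%, 5.60%, 9.81% and 8.12% of the summed FPKM from FF 1 through FF 4, against 12.3%, 9.20%, 8.12% and 18.2% from FFC 1 through FFC 4. The share was lowest in FF 2 and highest in FFC 4, and the genotypes overlapped. The amount of ribosomal protein message per cell cannot be read from these shares: fewer cells of a type and less RNA per cell cannot be told apart in bulk libraries.

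**Figure D1:**
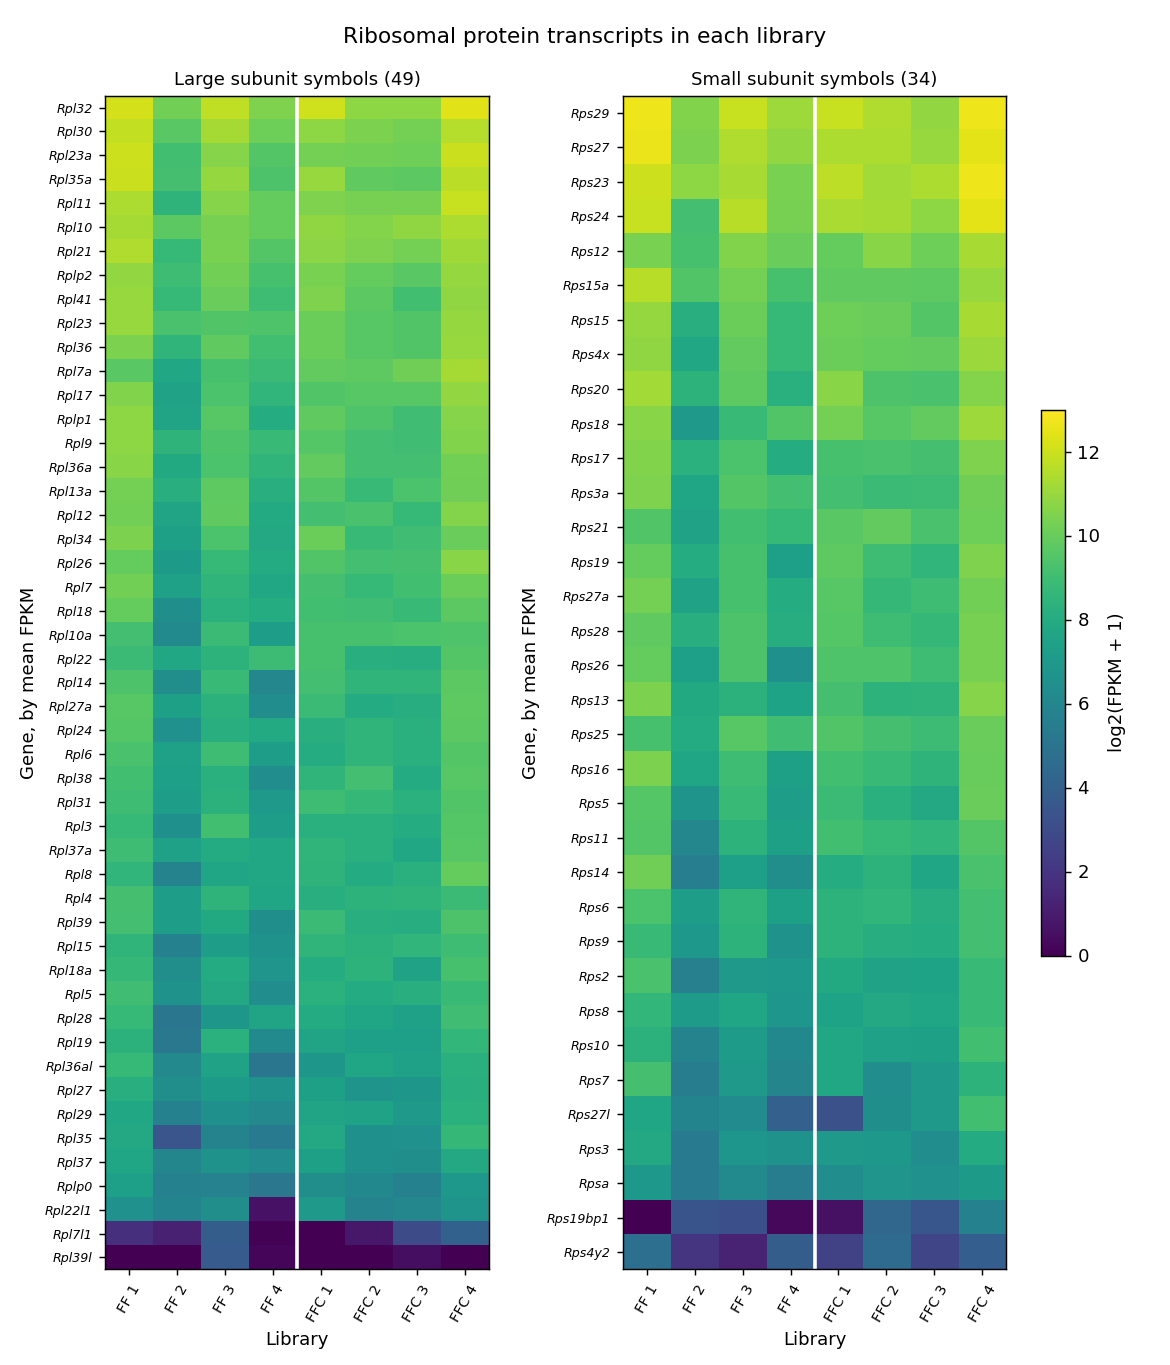
Level of each member, as log2(FPKM + 1), in the 4 FF and 4 FFC libraries (columns), with large subunit symbols on the left and small subunit symbols on the right, ordered by mean FPKM. Most rows share the same column pattern, dark in FF 2 and FF 4 and bright in FF 1 and FFC 4, and the paralogues at the bottom do not follow it.

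The most abundant members were small, mostly small subunit proteins. Rps29, a short zinc-binding protein of the small subunit head, had 6578, 1504, 3815 and 2200 FPKM from FF 1 through FF 4, against 3846, 2848, 1876 and 6611 FPKM from FFC 1 through FFC 4. Rps27, another zinc-binding protein, had a mean of 3203 FPKM, Rps23, which lines the decoding centre, 3074, Rpl32 2979 and Rps24 2658. Leaving out 7 paralogues or look-alike symbols and the Rpl24 row described below, 75 members remained. The lowest of these was Rplp0, the base of the P-stalk, with 161, 50.6, 53.6 and 34.7 FPKM across FF against 83.6, 65.6, 50.8 and 123 across FFC. Mean FPKM, which is per length, spanned 47.1-fold from Rplp0 to Rps29, although their proteins are made into the same particle. Over the 81 members with a transcript length in GENCODE M21, those of at most 771 bases (41 members) had a median of 640 FPKM and the 40 longer ones 412 FPKM. The library protocol selected fragments by size. The 5 most abundant members had transcripts of 390 (Rps29), 345 (Rps27), 937 (Rps23), 711.5 (Rpl32) and 525 bases (Rps24), and the part of size selection in their levels was not tested.

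The order of the members was much the same in every library. Over the 28 pairs of libraries, the Spearman correlation across the 83 members ranged from 0.870 to 0.963 (median 0.911). Across all 17753 tested genes it ranged from 0.375 to 0.659 (median 0.497). These are correlations across genes, which are not independent replicates. The tested genes had a median of 6.73 FPKM against 495 for the members, and no set matched in level was compared in this way. The members also moved up and down together: 68.1% of their variance around their own means on the log2(FPKM + 1) scale was taken up by the library mean. Their median standard deviation over the 8 libraries was 0.99, against 1.40 for the 208 other genes of at least 277 FPKM. That of the members fell to 0.36 after the library mean was subtracted, a step not taken for the other genes.

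The shared movement had the same extremes in nearly every member. Of the 75 members, 55 were lowest in FF 2 and 20 in FF 4, while 47 were highest in FFC 4 and 28 in FF 1. For 66 of the 75 the lowest pair of libraries was FF 2 with FF 4. The FF group thus held both the lowest libraries and one of the highest, and the highest library held a median of 6.87 times the FPKM of the lowest. The mean log2(FPKM + 1) of these 75 was 9.90, 7.47, 8.92 and 7.94 from FF 1 through FF 4, against 9.23, 8.89, 8.74 and 10.08 from FFC 1 through FFC 4. After upper-quartile scaling, quantile normalization or scaling to equal sums FF 2 stayed lowest, followed by FF 4. The highest was FF 1 after upper-quartile scaling and FFC 4 in the other settings. The range from the lowest to the highest library narrowed, from 2.61 on the deposited values to 1.72, 1.77 and 1.88 after these scalings. The libraries lowest in ribosomal protein messages were those highest in chemosensory receptor share and lowest in summed microglial markers, and the part of these measures in the result was not tested.

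**Figure D2:**
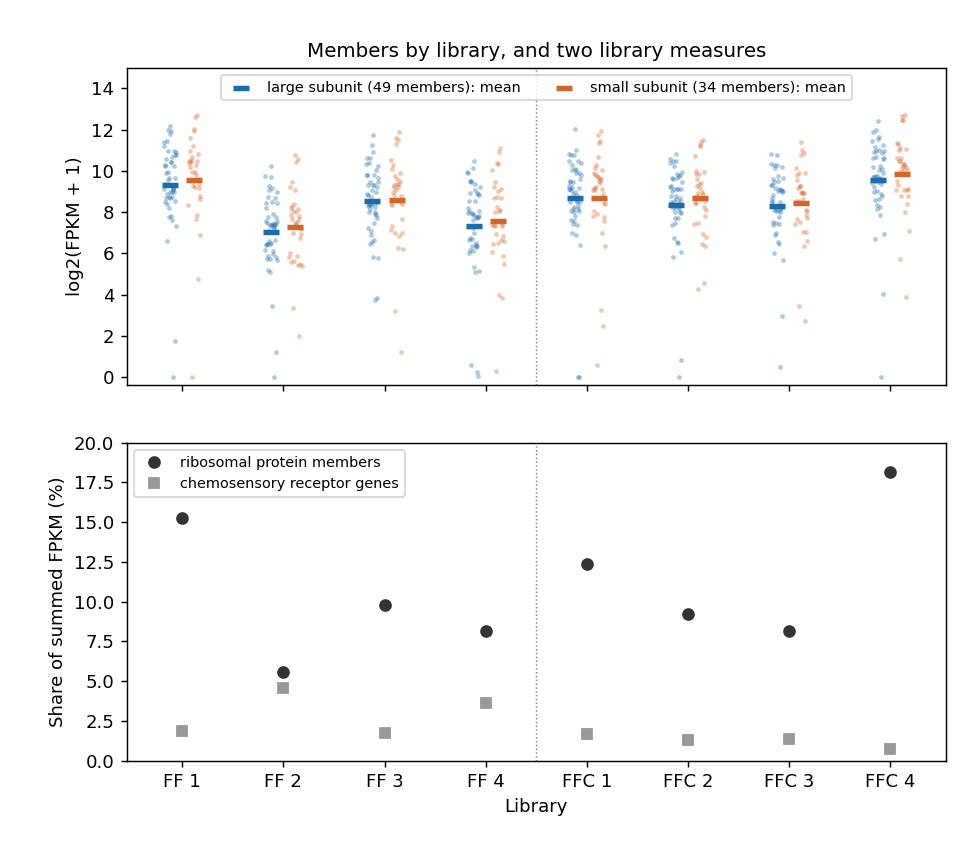
Top: log2(FPKM + 1) of each member (points) and the subunit mean (bars) in each library. Bottom: share of the summed FPKM held by the members (circles) and by chemosensory receptor genes (squares). The members' share runs from 5.60% in FF 2 to 18.2% in FFC 4, and the receptor share is above 3% in FF 2 and FF 4 only.

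Single members followed the shared pattern to different degrees, measured as the Pearson correlation over the 8 libraries with the mean of the other members (all points share their library). The median was 0.928, and 61 of 83 were above 0.9. Rps15, a small subunit head protein, followed it most closely (0.995), with 1991, 290, 1091 and 413 FPKM across FF against 1110, 1027, 744 and 2504 across FFC. Rplp1 (0.986) and Rps10 (0.985) came next. Among the 75, the least like the rest was Rpl22 (0.626), an RNA-binding large subunit protein needed for T cell development. It had 472, 216, 340 and 487 FPKM across FF against 594, 293, 269 and 728 across FFC, so that FF 4, low for most members, was here the highest FF library. The 3 lowest of all were Rpl39l (-0.02), Rps19bp1 (0.15) and Rps4y2 (0.38), none of which is a standard ribosomal protein of somatic cells.

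The large and small subunit messages moved together, with the small subunit somewhat higher per member. By mean FPKM over the 8 libraries, the median large subunit member had 421 FPKM and the median small subunit member 627 FPKM. The mean log2(FPKM + 1) of the large subunit was 9.31, 7.02, 8.53 and 7.34 across FF against 8.68, 8.36, 8.31 and 9.55 across FFC. For the small subunit it was 9.57, 7.28, 8.57 and 7.59 across FF against 8.67, 8.68, 8.44 and 9.86 across FFC. The small subunit mean was higher in 7 of 8 libraries, and the difference, large minus small, was -0.27, -0.26, -0.05 and -0.25 in FF and 0.01, -0.33, -0.13 and -0.30 in FFC. With the 75 members it lay between -0.34 and -0.21 in FF and between -0.24 and -0.14 in FFC, below 0 in all 8 libraries. The genotypes overlapped in either case. The FFC minus FF change of this difference was 0.02 with all members, against a spread within genotype of 0.14 (SD). With the 75 it was 0.07, above the SD of 0.055 within FF and 0.053 within FFC, and 0.10 against FF 1 and FF 3 alone. It has no test. Summed over members, large subunit messages outweighed small subunit ones by a ratio of 1.06 to 1.20, with 49 against 34 genes.

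Between genotypes, nearly all members had a higher mean in FFC, none passed the test, and the direction rested on FF 2 and FF 4. In limma on log2(FPKM + 1), fitted to all 17753 genes with Benjamini-Hochberg adjustment, 0 of 83 members passed, as did 0 of all genes (0%). The smallest adjusted p of a member was 0.712. The mean was higher in FFC for 81 of 83 members, where 56.7% of all tested genes were higher. The median difference was 0.63 over all members, 0.66 for the large and 0.61 for the small subunit. It was 0.19 over all tested genes, so that relative to the latter the members stood 0.44 higher. The size of this gap depended on the setting. Raising the filter to 5 FPKM gave 0.26, and 64.5% of the genes left were then higher in FFC. Adding 0.1 or 5 to the FPKM in place of 1 gave 0.33 and 0.54. The gap was 0.08 without FF 2 alone and 0.83 without FF 1 alone. Most tested genes lie far below the members in level. The median of all genes fell to 0.02 with upper-quartile scaling, and that of the members was then 0.39. With that scaling 73 of 83 members were higher in FFC, against 50.9% of all tested genes. The count was 75 with quantile normalization (51.3% of all genes) and 75 with equal sums (51.6%). On the deposited values, the 2 members with a lower mean in FFC were Rps15a (-0.02) and Rpl39l (-0.87).

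Without FF 2 and FF 4 most members had a lower mean in FFC. Of the 83 members, 24 were then higher and 59 lower in FFC, with a median of -0.21 in the large and -0.22 in the small subunit (0 passed in limma, smallest adjusted p = 0.797). In that setting 52.6% of all tested genes were higher, and 0 members had an unadjusted p under 0.05, against 5.62% of all genes. Of the 40 members picked for naming, 24 turned from a higher to a lower mean. The median over all members was 0.24 without FF 2 alone, 0.40 without FF 4 alone, 1.10 without FF 1 alone and 0.31 without FFC 4 alone. Without FF 1, 23 members had an unadjusted limma p under 0.05, all higher in FFC, where 5.99% of all tested genes did so in that direction, and 0 members passed after adjustment. FF 1 was the highest library for 28 of the 75 members, and the members moved together. These 23 are therefore not independent results. The titles give November for FF 1 to FF 3 and FFC 1 and December for the rest. Within November the mean member level of FFC 1 was 0.31 above that of the 3 FF libraries, and within December that of the 3 FFC libraries was 1.40 above FF 4, which is 1 of the libraries that stand apart. Those comparisons have 1 library on 1 side and no test. In a fit with genotype and sex, 0 members had an interaction that passed in limma, and 0 of 83 reached an unadjusted p under 0.05, against 3.19% of all tested genes. Beside the genotypes, erythroid markers were lower in FFC in 5 of 5 tested cases (summed level 65.4 to 241 FPKM in FF, 33.2 to 63.9 in FFC) and endothelial and mural markers in 6 of 6 (18.02 to 61.6 FPKM and 5.04 to 26.2 FPKM). Markers of T and B cells were lower in 8 of 9 cases (37.7 to 540 and 30.3 to 106 FPKM, highest in FF 1), and those of neutrophils in 4 of 6. The neutrophil markers with a higher mean in FFC were Ly6g (difference 4.29) and Ngp. Astrocyte markers were lower in 3 of 6 and oligodendrocyte markers in 0 of 4, and 0 of 5 neuronal markers reached the tested level. Among the astrocyte markers, Clu had 127, 36.3, 23.4 and 61.9 FPKM across FF against 0.887, 1.84, 3.45 and 0.0124 across FFC. Its difference was -4.55 (limma adjusted p = 0.382). Microglial markers were higher in FFC in 10 of 12 cases (median 0.48). Without FF 2 and FF 4 they were higher in 4 of 12 (median -0.06), a turn like that of the members. Their part in the members' levels was not tested.

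**Figure D3:**
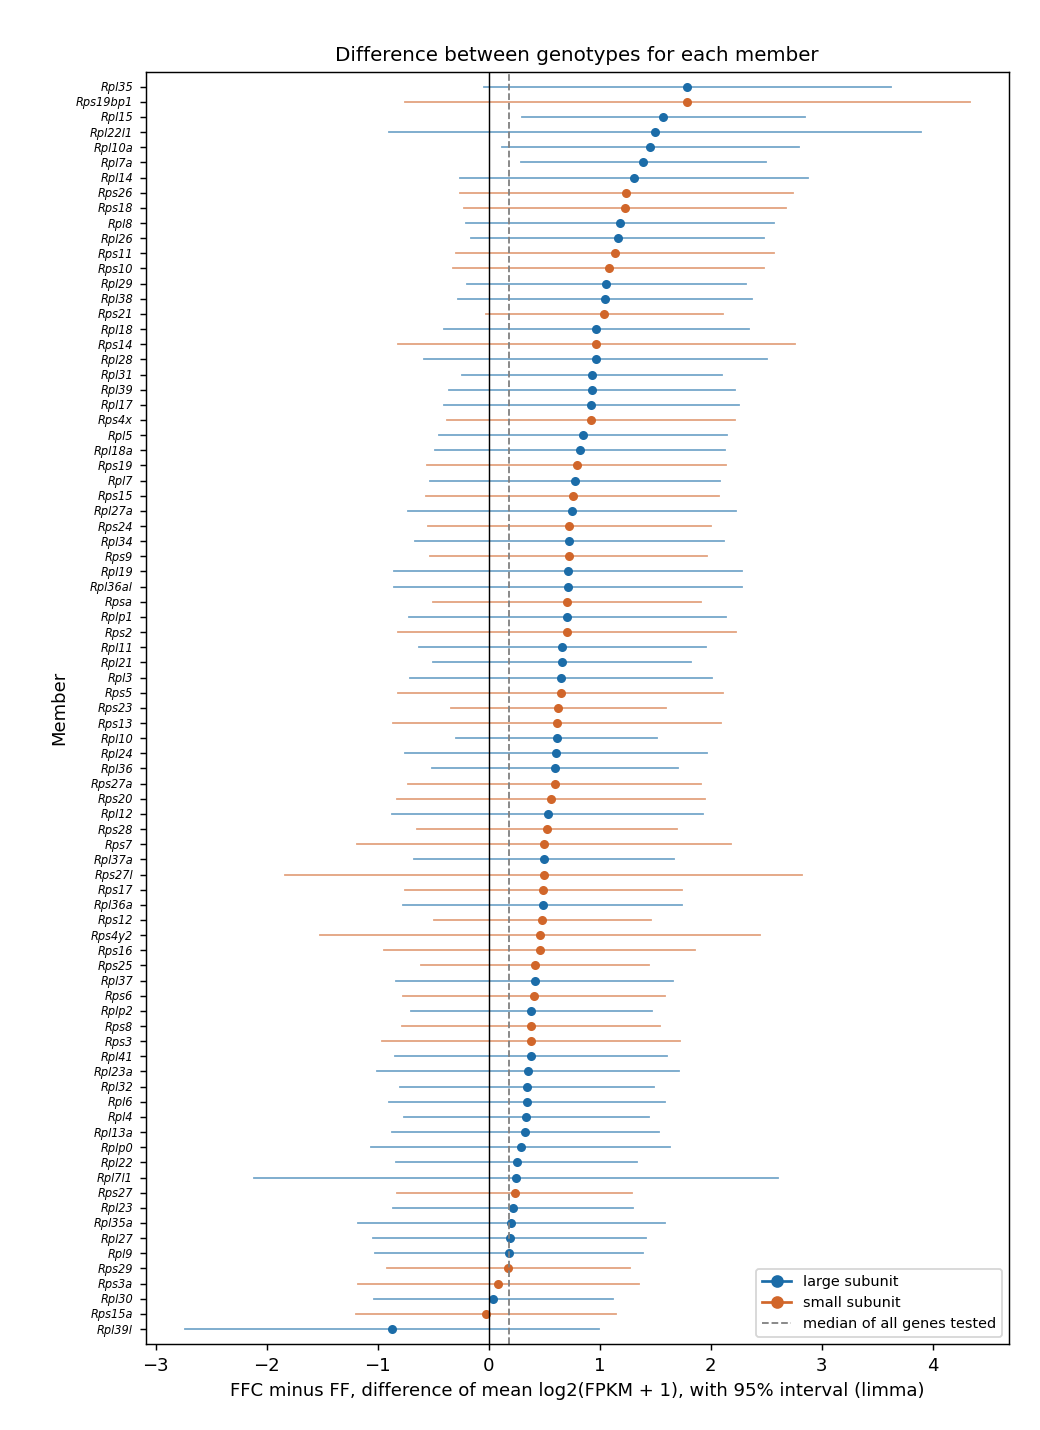
FFC minus FF difference of mean log2(FPKM + 1) for the 83 members, with limma's 95% interval, coloured by subunit. Points lie right of 0 for 81 members, the dashed line marks the median of all tested genes (0.19), and the intervals of 80 members include 0.

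**Figure D4:**
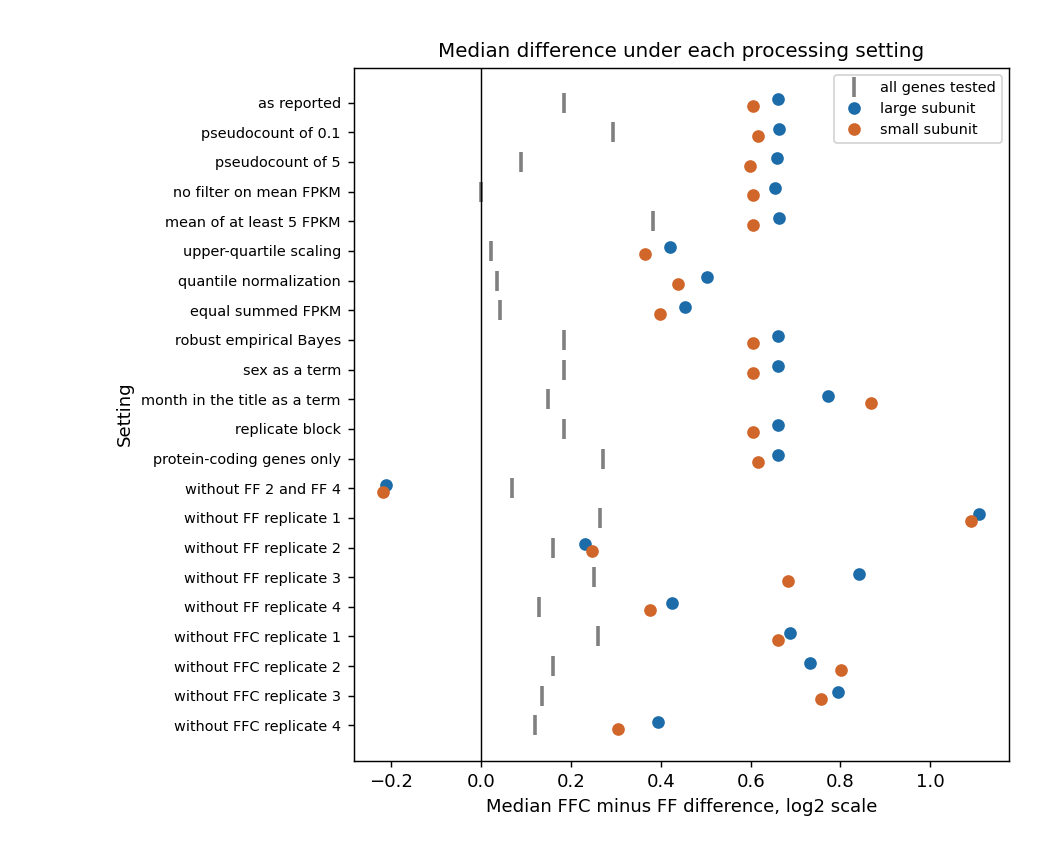
Median FFC minus FF difference of the large and small subunit members and of all tested genes under each processing setting. Both subunits lie right of 0 in each setting except without FF 2 and FF 4, where they are at -0.21 and -0.22.

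At an unadjusted limma p under 0.05 stood 3 of 83 members, all large subunit genes and higher in FFC (4.52% of all tested genes did so in that direction, and 1.94% in the other). Rpl7a (ENSMUSG00000062647, chr2:26766284-26768838 in mm9), a large subunit protein near the exit of the peptide tunnel, had 811, 217, 598 and 461 FPKM across FF against 940, 879, 1153 and 2448 across FFC. Its lowest FFC library lay above its highest FF library. The difference was 1.39 ± 0.51 (SE; unadjusted p = 0.0172, limma adjusted p = 0.712), and without FF 2 and FF 4 it was 0.83, the highest of the large subunit. Rpl10a had 550, 70.2, 469 and 153 FPKM across FF against 604, 603, 640 and 688 across FFC. Its FFC libraries were close together and just above FF 1, with a difference of 1.46 ± 0.62 (SE; limma adjusted p = 0.736). Rpl7a and Rpl10a were the only members without overlap between the genotypes, 2 of 83 where 3.05% of all tested genes were higher without overlap, while 0 members were lower without overlap (1.29% of all genes). Rpl15 had 361, 52.0, 147 and 99.4 FPKM across FF against 361, 329, 371 and 503 across FFC, with a difference of 1.57 ± 0.59 (SE; limma adjusted p = 0.712). FFC 2 lay below FF 1, and so by a small margin did FFC 1 (360.9 against 361.2 FPKM), so the genotypes overlapped. Without FF 2 and FF 4 the difference was 0.74 for Rpl15 and 0.32 for Rpl10a. The next members by unadjusted p were Rps21 (difference 1.04 ± 0.49, SE) and Rpl35 (1.79 ± 0.85, SE), which had 227, 9.90, 55.0 and 38.9 FPKM across FF against 227, 92.1, 93.2 and 396 across FFC. These differences were 0.46 and 0.57 without FF 2 and FF 4.

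The P-stalk is the arm of the large subunit that recruits and activates the elongation factors. It consists of Rplp0 at the base, carrying dimers of Rplp1 and Rplp2. Rplp1 had 1760, 192, 797 and 266 FPKM across FF against 900, 692, 512 and 1596 across FFC. Rplp2 had 1908, 504, 1218 and 596 FPKM across FF against 1320, 970, 803 and 1981 across FFC. Both overlapped between the genotypes and were above Rplp0 in every library, Rplp1 by a ratio of 3.79 to 14.9 and Rplp2 by 9.97 to 22.7. The differences between genotypes were 0.29 ± 0.62 for Rplp0, 0.71 ± 0.66 for Rplp1 and 0.39 ± 0.50 for Rplp2 (SE). All 3 turned when FF 2 and FF 4 were left out, to -0.28, -0.49 and -0.35.

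Large subunit proteins with known further roles showed the shared pattern. Rpl5 and Rpl11, which carry the 5S RNA into the ribosome and bind the p53 inhibitor Mdm2 when ribosome assembly fails, had 230 ± 198 and 1403 ± 1006 FPKM across FF against 323 ± 76.9 and 1961 ± 1242 across FFC (SD, n = 4). Rpl13a, released from the ribosome in interferon-treated myeloid cells to silence inflammatory messages, had 1231, 294, 889 and 293 FPKM across FF against 733, 440, 638 and 1145 across FFC. Its difference was 0.33 ± 0.56 (SE; limma adjusted p = 0.878), and -0.59 without FF 2 and FF 4. Its row overlaps that of Flt3l. Rpl10, which joins late in assembly, varied least of all (SD of 0.59), with 2393, 850, 1285 and 967 FPKM across FF against 1819, 1526, 1816 and 2746 across FFC. Rpl3, close to the peptidyl transferase centre, had 296 ± 211 and 409 ± 242 FPKM in FF and FFC. Rpl38, known for its part in translating Hox messages, had 271 ± 199 and 490 ± 231 FPKM. Rpl39, in the wall of the exit tunnel, had 257 ± 206 and 419 ± 178 FPKM, and Rpl41, a peptide of very few residues, 990 ± 733 and 1173 ± 591 FPKM (SD, n = 4). In these genes, with the exception of Rpl38, the difference between mean FPKM was smaller than the SD within FF, and none passed the test. Without FF 2 and FF 4 the log2 difference was -0.11 for Rpl5, -0.25 for Rpl11, -0.35 for Rpl3 and -0.46 for Rpl41, and it was above 0 for Rpl10 (0.14), Rpl38 (0.15) and Rpl39 (0.12).

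Among small subunit proteins, Rps6, the substrate of the S6 kinases downstream of mTORC1, had 645, 153, 363 and 169 FPKM across FF against 342, 376, 271 and 545 across FFC. FF 1 was its highest library and FF 2 its lowest, and the difference was 0.41 ± 0.55 (SE; limma adjusted p = 0.836). It turned to -0.38 without FF 2 and FF 4. Rpsa, also known as the laminin receptor, had 119, 41.2, 72.7 and 44.3 FPKM across FF against 81.4, 109, 96.0 and 136 across FFC, among the lowest of the 75. Rps3, which contacts messenger RNA at the entry site, had 121 ± 78.6 and 146 ± 76.7 FPKM in FF and FFC. The X-linked Rps4x had 850 ± 717 and 1269 ± 551 FPKM. Rps19, mutated in Diamond-Blackfan anaemia, had 503 ± 373 and 790 ± 473 FPKM, and Rps27a, made as a fusion with ubiquitin, 565 ± 475 and 715 ± 359 FPKM (SD, n = 4). Rps14, whose loss of 1 copy underlies the anaemia of the 5q syndrome, had 1144, 46.7, 160 and 86.05 FPKM across FF against 260, 342, 200 and 626 across FFC. Its means were almost equal, 359 FPKM across FF against 357 across FFC, while its log2 difference was 0.97 ± 0.83 (SE), as FF 1 carried most of the FF mean. Leaving out FF 2 and FF 4 gave -0.40. The difference then was also below 0 for Rps3 (-0.27), Rps4x (-0.13), Rps19 (-0.15) and Rps27a (-0.38), and above 0 for Rpsa (0.15). Rps25 was among the least variable (SD of 0.59).

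The symbol rule also caught paralogues and look-alikes. Rpl22l1, which can replace Rpl22, had 96.1, 57.7, 85.5 and 0.530 FPKM across FF against 125, 55.1, 64.1 and 103 across FFC. It stood at 14.2% to 26.8% of the level of Rpl22 in 7 libraries and at 0.109% in FF 4. Rps27l, a p53 target, had 203, 58.1, 76.2 and 14.6 FPKM across FF against 8.48, 86.9, 129 and 528 across FFC, 0.309% to 9.24% of Rps27. FFC 1 was its lowest library, as it was for Rpl7l1. Rpl36al was at 9.01% to 37.0% of Rpl36a and followed the shared pattern (correlation 0.882). Rpl7l1, a ribosome biogenesis factor, was at no more than 3.75% of Rpl7 (2.39, 1.31, 13.4 and 0.0451 FPKM in FF, 0.0134, 0.796, 6.84 and 15.4 FPKM in FFC). Rps4y2, named Rps4l in GENCODE M21 and classed there as a transcribed processed pseudogene, was at 0.142% to 3.21% of Rps4x. Rps19bp1 encodes a binding partner of Rps19 and is no ribosomal protein. It had 0, 9.38, 8.10 and 0.215 FPKM across FF against 0.481, 18.3, 9.96 and 51.2 across FFC, and the 0 is that of FF 1.

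The threshold of 1 FPKM fell among the tissue-restricted copies. The testis-enriched Rpl39l, with a mean of 1.60 FPKM the last member inside it, had 12.2 FPKM in FF 3, 0.186 in FF 4 and 0.398 in FFC 3, and is listed at 0 in the other 5 libraries. Next inside came Rpl7l1 (5.03) and Rps4y2 (11.3). Just outside lay the muscle-enriched Rpl3l (0.458) and the testis-enriched Rpl10l (0.343). The row named Rpl24 carries the identifier ENSMUSG00000022601, which GENCODE M21 gives to the neighbouring gene Zbtb11. It spans chr16:55966388-56009026 in mm9, so its values (mean 397 FPKM) may hold reads of both genes.

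Position and overlap were examined because short, intron-hosted and copied genes share reads. The members lay on 19 chromosomes, 14 of them on chromosome 7. Introns of ribosomal protein genes host small nucleolar RNAs, and 55 rows for such RNAs lay inside 29 members. Of these rows 22 were listed at 0 in all 8 libraries and 17 had a missing value. As an example chosen after its values were seen, Snora33, inside Rps12, had 25.2, 3084, 1551 and 0 FPKM across FF against 0, 567, 64.7 and 189 across FFC. Rps12 itself had 588 to 1470 FPKM in FF and 964 to 2562 in FFC. A protein-coding row overlapped 14 members, 4 of them among these 29. Rows of 226 pseudogenes of ribosomal proteins summed to 5.76% to 12.5% of the members' FPKM in FF and 5.04% to 6.64% in FFC, highest in FF 4 and FF 2. The handling of reads that fit both a gene and its pseudogene is not known here, so single members with near-identical copies are uncertain.

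Other genes of the translation apparatus were taken from lists that the symbol rule did not touch, and 0 of their members passed the test. Fau, a small subunit protein made as a fusion with a ubiquitin-like protein, and the small subunit scaffold Gnb2l1 (Rack1) had their lowest libraries where the members did. Fau had 411, 33.7, 280 and 103 FPKM across FF against 302, 421, 227 and 653 across FFC. Gnb2l1 had 594, 162, 338 and 150 FPKM across FF against 241, 308, 280.5 and 839 across FFC. FF 2 and FF 4 were the lowest for both, and the differences were 1.38 for Fau and 0.46 for Gnb2l1, or 0.13 and -0.30 without FF 2 and FF 4. Initiation factors were higher in FFC in 30 of 36 cases (median 0.50), and the eIF3 subunit Eif3g had 83.9 ± 71.0 FPKM across FF against 196 ± 53.8 across FFC (SD, n = 4). Elongation and release factors were higher in 9 of 10 cases (median 0.63). The exception was the elongation factor subunit Eef1g, with 123, 54.3, 89.4 and 147 FPKM across FF against 49.5, 34.6, 47.0 and 59.3 across FFC. FF 4 was its highest library, unlike the ribosomal proteins, and the difference was -1.04 ± 0.56 (SE; limma adjusted p = 0.759), or -1.15 without FF 2 and FF 4. Without those libraries, initiation factors were higher in 21 of 36 cases (median 0.08) and elongation and release factors in 6 of 10 (median 0.10).

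Genes that build ribosomes were higher in FFC in 30 of 39 cases, with a median of 0.48. Polr1a, the large subunit of RNA polymerase I, had 2.27, 1.32, 5.37 and 1.91 FPKM across FF against 21.8, 31.1, 10.7 and 7.09 across FFC, without overlap (difference 2.24 ± 0.78, SE; limma adjusted p = 0.712). The nucleolar GTPase Gnl3 had 21.4, 6.82, 13.03 and 0.441 FPKM across FF against 56.0, 62.4, 22.3 and 34.1 across FFC, also without overlap (2.43 ± 0.87, SE). Of this list 5 of 39 were higher without overlap, where 3.05% of all tested genes were. Nascent chain partners were higher in 7 of 8 cases (median 0.28), with Srp72 of the signal recognition particle at 37.7 ± 18.4 FPKM across FF against 81.0 ± 35.8 across FFC, and Btf3 at 200.2 ± 137 and 248 ± 122. Host genes of small nucleolar RNAs were higher in 4 of 5 cases (median 0.25), with Snhg5 at 1.76 ± 2.45 and 4.58 ± 2.17 FPKM and Snhg1 at 1.25 ± 0.204 and 3.28 ± 2.41 (SD, n = 4). Without FF 2 and FF 4, genes that build ribosomes were higher in 21 of 39 cases (median 0.03), nascent chain partners in 4 of 8 (median -0.01) and host genes in 5 of 5 (median 0.57), against a median of 0.07 over all tested genes. The difference was then 1.83 for Polr1a and 1.23 for Gnl3.

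Genes of the mTORC1 and S6 kinase pathway, through which the tract-bearing messages are controlled, were higher in FFC in 12 of 16 cases (median 0.61). The elongation factor 2 kinase Eef2k had 0.804, 1.13, 10.2 and 0.520 FPKM across FF against 5.98, 22.2, 4.61 and 54.9 across FFC, and the S6 kinase Rps6kb2 had 4.83, 2.60, 34.4 and 6.94 FPKM across FF against 71.9, 12.9, 51.1 and 22.3 across FFC. FF 3 overlapped the FFC range for both. In the Mdm2 and p53 list 5 of 6 tested genes were higher (median 0.48). The cell cycle inhibitor Cdkn1a had 10.3, 0.856, 2.35 and 0.300 FPKM across FF against 57.3, 87.0, 6.61 and 151 across FFC (difference 4.00 ± 1.01, SE; limma adjusted p = 0.534), and Mdm2 had 22.5 ± 11.4 FPKM across FF against 52.2 ± 19.8 across FFC (SD, n = 4). Nf1 itself had 27.4, 60.8, 65.2 and 25.5 FPKM across FF against 56.2, 47.8, 47.7 and 98.3 across FFC. The Cre promoter is not known to act in the sorted cells, so this level checks no label. The microglial receptor Csf1r had 750, 379, 1017 and 551 FPKM across FF against 607, 954, 875 and 1062 across FFC, lowest in FF 2 and FF 4 like the ribosomal proteins. Without those libraries, mTORC1 and S6 kinase genes were higher in 11 of 16 cases (median 0.31) and Mdm2 and p53 genes in 3 of 6 (median 0.35). Cdkn1a then differed by 3.00 and Csf1r by -0.03.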

How the data were processed

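RNA of flow-sorted optic nerve microglia was sequenced after amplification with the Ovation method, per the labels' protocols. The authors deposited 1 table of FPKM values per gene and library. Bowtie2 2.0.0 and TopHat2 2.0.4, Cufflinks 2.0.2, CASAVA 1.8.2 and the build mm9 appear in the submitters' processing notes, with no roles or settings. Genes with a missing value (447) were left out. From the deposited FPKM, log2(FPKM + 1) was taken for 17753 genes whose mean reached 1 FPKM. FFC was compared with FF in limma 3.58.1 under R 4.3.3 (empirical Bayes with trend, two-sided, Benjamini-Hochberg adjustment over all genes tested, threshold 0.05). Changes of low genes are understated on this scale. The test was checked on simulated data in which each gene varied independently. That check does not cover shifts shared by many genes of a library, as seen here. Other steps used pandas 2.3.3, numpy 2.4.6, scipy 1.17.1 and, for figures, matplotlib 3.10.9 in Python 3.11.15.

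Starts in the table count from 0 (21680 genes then match GENCODE M21 in length, 420 otherwise) and coordinates here count from 1. Transcript lengths and gene types came from GENCODE M21 by identifier, and RefSeq (GRCm38.p6) the start sites, by symbol. The members, lists and left-out libraries were chosen with earlier results of these data known. Named were the most and least abundant members, those with the smallest p, the widest and narrowest spread and the most and least typical pattern, members listed at 0, symbols at the edge of the threshold, a set with known roles, paralogues, and up to 2 genes per other list. The reduced set of 75 members and the tract lengths were chosen after seeing the data. Alternatives were other pseudocounts, filters, scalings, variance models and covariates, and leaving out libraries.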

Additional observations from a re-analysis of the deposited data

Results flagged for a closer look

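In groups of 4 libraries, 8 of 88 groups examined (the named members and 4 subunit measures in each genotype) held a library far from the other 3, measured as its gap to the nearest library over the whole range on the log2(FPKM + 1) scale. For independent, normally spread groups chosen without regard to their values, chance would flag about 1 in 20. The named members move together, and some were picked for their spread or zeros. That rate is therefore no measure for these 88 groups. FFC 4 stood above the other FFC libraries for Rps15a (0.956), Rps4x (0.856), Rpl11 (0.918) and Rpl3 (0.866). In the same library the members held 18.2% and protein-coding genes 90.4% of the summed FPKM, against 58.5% to 72.6% for protein-coding genes in the other 7. FF 4 stood below the other FF libraries for Rpl22l1 (0.879). FF 3 stood above them for Rpl39l (0.934) and FFC 3 above the FFC libraries (1.00). The other 3 FFC libraries are listed at 0, which fixes that value. The difference between large and small subunit was apart in FF 3 (0.950), at -0.05; with the 75 members it was -0.24 there, inside the FF range.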

How the results depend on the processing

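Under each of the 21 other settings or subsets of libraries 0 members passed limma's test. Over all genes 1 passed without FF 1 and 1 without FFC 4, so that leaving out single libraries gave 0 to 1. Without FF 2 and FF 4, 24 members were higher in FFC, and the large subunit median was -0.21. In the other alternatives the count of higher members stayed within 1.5 times, and the medians moved by less than 1 SD between libraries. The medians of all members (-0.21) and of the small subunit (-0.22) without FF 2 and FF 4 lay within that SD too, with the sign turned. Of 838 differences of 40 named members across alternatives, 10 moved by more than 1 SD, all without FF 2 and FF 4, and 0 were called. With the replicate block, 0 genes passed and 81 members were higher, with a median of 0.63. At an unadjusted p under 0.05 it gave 1014 genes against 1146 without it. Libraries with the same number shared only a number: their deviations correlated at -0.05 to 0.03, and 1 of 8 libraries correlated best with its own number. With month as a term the member median was 0.85. The depth behind these FPKM values is unknown, so no limit from counting can be given.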
